A study of Homo sapiens with 12 samples.

Results

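The 48 genes described here encode subunits of the human proteasome, caps, the regulator PSMF1 and assembly chaperones. They were taken by symbol: every protein-coding gene whose symbol begins with PSMA, PSMB, PSMC, PSMD, PSME, PSMF or PSMG followed by a digit, without PSMB8 and PSMB9, out of 28101 genes in the deposited table. The pattern also took PSMC3IP and PSME3IP1, which are not proteasome subunits and are given apart, so that 46 proteasome genes remain. RNA was sequenced from MV3, an established human melanoma cell line, in 4 groups of 3 libraries. Cells had been moved to RPMI medium with 1% serum depleted of extracellular vesicles (EVs) for 3 h. They then received PBS (Ctrl) or 1e10 particles per well of EVs for 24 h. The EVs were spun down by ultracentrifugation from medium of THP-1 cells. This line of human monocytic leukaemia had spent 48 h of polarization towards the macrophage states M0 (M0 EV), M1 (M1 EV) or M2 (M2 EV), with agents that the labels leave unnamed. The replicates carry numbers, but nothing says that they were separate cultures or vesicle preparations, so SDs and p-values reflect the spread among these libraries, which may be technical.

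The proteasome is the large protease that degrades proteins tagged with ubiquitin. Its core particle, the 20S proteasome, stacks rings of alpha subunits, which gate entry, and beta subunits, some of which carry the proteolytic sites. The 19S cap binds ubiquitin chains, removes them and feeds the unfolded protein into the core with a ring of ATPases. Alternative caps, such as the PSME1 and PSME2 heteromer that interferon induces, open the core without ATP, and the peptides it releases supply antigen presentation by MHC class I.

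Libraries held 9699560 to 14384676 counts over genes, and 13132 genes, 46 of the 48 members among them, had enough counts to be tested. PSMA8, an alpha subunit of the testis, and PSMB11, a beta subunit of the thymus, had 0 counts in all 12 libraries and were not tested. Levels are CPM values, counts relative to the library total, scaled by TMM. Transcript lengths are not in the table, so levels are compared between groups and never between genes. Of the 12 markers of melanoma and melanocytes listed, AXL and CSPG4 were abundant, while TYR and S100B had 0 counts throughout, SOX10 had 4 counts in all (in the M2 EV group), and MITF had 25 to 29 counts per group. Replicate libraries differed slightly more than sampling alone gives, and M0 EV replicate 1 stood apart from the other M0 EV libraries (chi-square per degree of freedom 2.00 and 2.32 against 1.03 between those). Reads of near-identical copies may be divided among genes: 52 pseudogenes of the members are annotated, and 20 members overlap another annotated gene. Of the members given library by library below, these are PSMA6, PSMB7, PSMC1, PSMC2, PSMD3, PSMD13, PSMD14, PSME2 and PSMF1.

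Most proteasome genes rose in the cells given M1 EV. Against Ctrl, 32 of the 46 tested members were higher and 0 were lower at an adjusted p below 0.05 (edgeR quasi-likelihood test, Benjamini-Hochberg over all genes tested). Over all genes tested, 14.7% were called higher and 13.5% lower in the same comparison. The lowest mean of a tested member was 13.2 CPM. Among the 9663 genes with a mean of at least 10 CPM, a limit chosen after the values were seen, 18% were called higher. The changes were small: the median log2 fold change of the members was 0.15, with a range from -0.14 (PSMG4) to 0.45 (PSME2), and 44 of 46 were positive (95.7%). The median over all genes was 0.0036, with 50.8% positive. In bulk RNA a change in the mix of cells and a change in RNA per cell cannot be told apart.

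**Figure D1:**
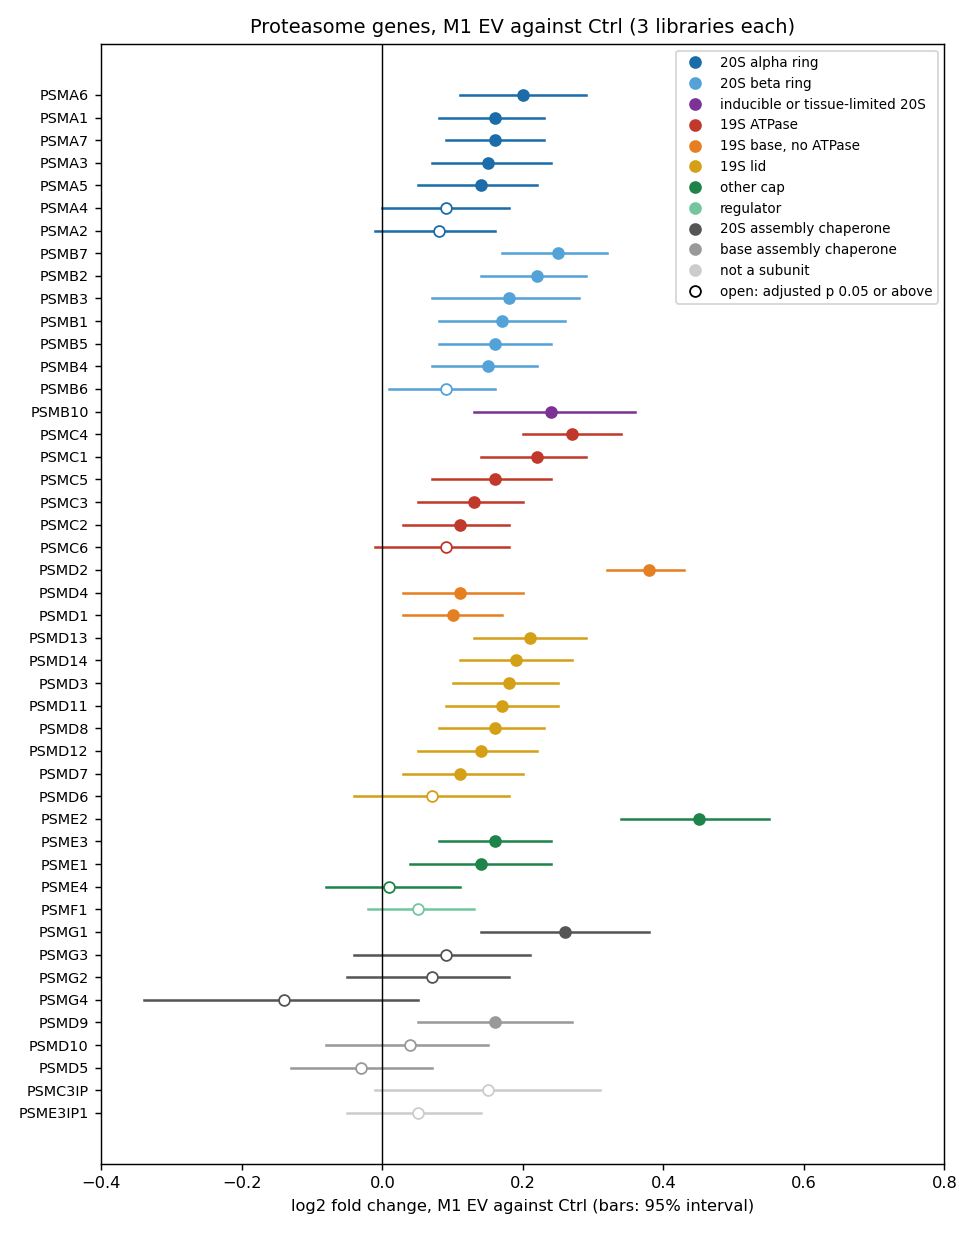
Log2 fold change of each tested member in M1 EV against Ctrl (horizontal axis, bars are 95% intervals of the fit, 3 libraries a group), coloured by role. The 32 filled points were called, all to the right of 0, and the open points, among them PSMG4 at -0.14, were not.

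Summed over the 46 proteasome genes, the level was 6558, 6615 and 6678 CPM in the Ctrl libraries, 6841, 6601 and 6613 CPM in M0 EV, 7671, 7394 and 7459 CPM in M1 EV, and 6754, 6704 and 6737 CPM in M2 EV. All 3 M1 EV sums lay above the other 9. Gene by gene, all 3 M1 EV libraries lay above the other 9 libraries for 26 of the 46 tested members and below them for 0. Of all 13132 tested genes, 1685 (12.8%) had all 3 M1 EV libraries on top and 1486 had them at the bottom. Replicates were close: the median coefficient of variation of the members was 2.85% in Ctrl, 2.99% in M0 EV, 3.51% in M1 EV and 2.89% in M2 EV.

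**Figure D2:**
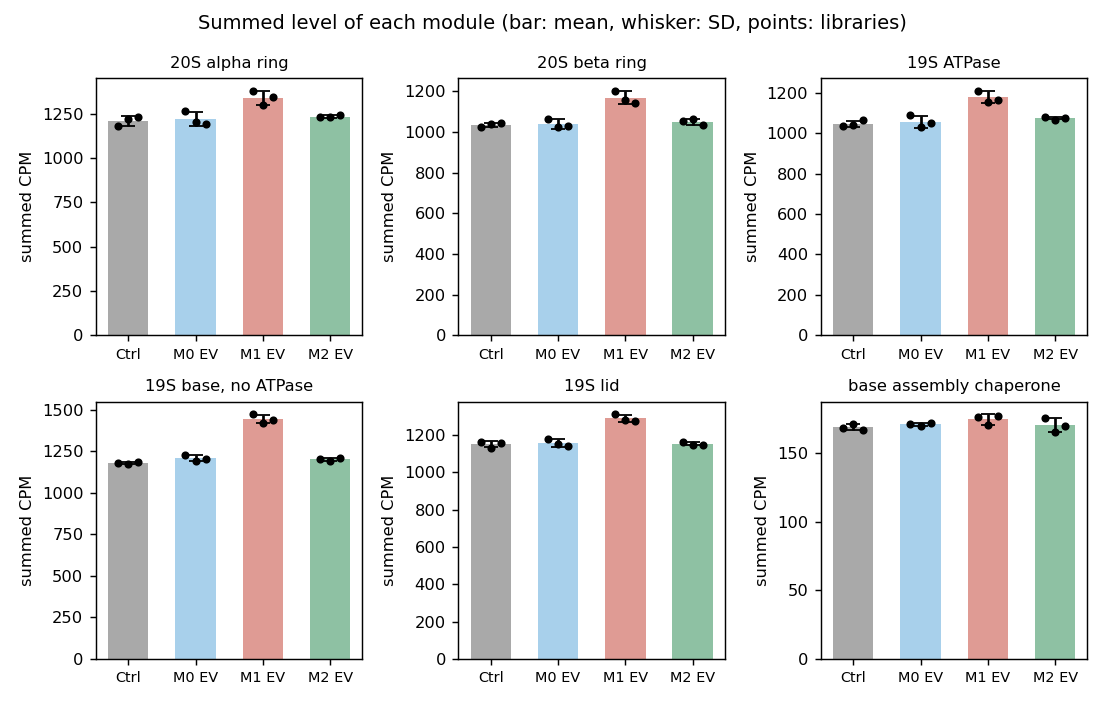
Summed CPM of 6 proteasome modules (vertical axes start at 0) by group, with bars for the mean, whiskers for the SD and points for the 3 libraries. In the 20S rings and the ATPase, non-ATPase base and lid modules of the 19S cap, each M1 EV library lies above the other 9, while the base assembly chaperones of M1 EV, 170.4 to 177 CPM, overlap the other groups. PSMD2 (mean 799.6 CPM in Ctrl, 1037 in M1 EV) gives most of the rise of the non-ATPase base, where PSMD1 and PSMD4 each overlap M2 EV.

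Promoter sequences are shown for 6 members: the 3 with the smallest adjusted p in M1 EV against Ctrl (PSMD2, PSME2 and PSMC4), and the 4, PSME2 included, that hold the same 10 letters of an interferon-stimulated element. They are RefSeq sequences of GRCh38.p14, 250 bases before and 50 from the annotated start of transcription, printed 5′ to 3′ on the strand of the gene. Capitals mark matches to the interferon-stimulated element (GAAANNGAAA), the antioxidant response element (TGACNNNGC), the interferon gamma-activated site GAS (TTCNNNGAA) or the CCAAT box (CCAAT), each searched on both strands. GC boxes (GGGCGG) were searched too and are left in lower case.
PSME2, chr14:24146561-24146860, minus strand: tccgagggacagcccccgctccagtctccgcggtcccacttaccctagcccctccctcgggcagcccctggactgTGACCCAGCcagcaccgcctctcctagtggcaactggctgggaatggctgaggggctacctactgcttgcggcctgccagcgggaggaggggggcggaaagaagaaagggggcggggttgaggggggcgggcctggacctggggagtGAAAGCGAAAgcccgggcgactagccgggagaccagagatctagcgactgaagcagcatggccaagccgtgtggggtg
PSME1, chr14:24135944-24136243, plus strand: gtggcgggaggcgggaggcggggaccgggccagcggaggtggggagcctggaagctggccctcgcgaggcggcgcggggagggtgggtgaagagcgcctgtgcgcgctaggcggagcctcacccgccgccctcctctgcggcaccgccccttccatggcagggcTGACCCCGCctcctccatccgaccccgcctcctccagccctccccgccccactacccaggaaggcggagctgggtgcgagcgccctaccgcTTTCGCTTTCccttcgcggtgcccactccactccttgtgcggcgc
PSMB10, chr16:67936801-67937100, minus strand: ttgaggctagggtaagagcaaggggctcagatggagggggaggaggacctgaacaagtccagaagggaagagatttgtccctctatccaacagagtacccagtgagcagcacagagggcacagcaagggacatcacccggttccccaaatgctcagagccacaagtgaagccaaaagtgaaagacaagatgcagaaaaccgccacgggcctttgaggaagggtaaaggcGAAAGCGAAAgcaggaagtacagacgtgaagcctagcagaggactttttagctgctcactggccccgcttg
PSMG4, chr6:3258697-3258996, plus strand: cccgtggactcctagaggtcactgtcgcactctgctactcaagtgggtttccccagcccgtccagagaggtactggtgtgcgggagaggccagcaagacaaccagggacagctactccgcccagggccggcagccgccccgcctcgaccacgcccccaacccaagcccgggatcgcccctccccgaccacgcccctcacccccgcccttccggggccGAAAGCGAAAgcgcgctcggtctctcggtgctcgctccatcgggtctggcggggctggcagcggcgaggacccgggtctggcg
PSMC4, chr19:39970915-39971214, plus strand: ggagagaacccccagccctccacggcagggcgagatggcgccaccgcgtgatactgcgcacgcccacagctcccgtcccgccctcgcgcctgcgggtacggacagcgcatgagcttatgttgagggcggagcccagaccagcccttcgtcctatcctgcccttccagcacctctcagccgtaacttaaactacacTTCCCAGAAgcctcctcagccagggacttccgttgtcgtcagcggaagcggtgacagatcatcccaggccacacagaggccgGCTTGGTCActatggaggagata
PSMD2, chr3:184298991-184299290, plus strand: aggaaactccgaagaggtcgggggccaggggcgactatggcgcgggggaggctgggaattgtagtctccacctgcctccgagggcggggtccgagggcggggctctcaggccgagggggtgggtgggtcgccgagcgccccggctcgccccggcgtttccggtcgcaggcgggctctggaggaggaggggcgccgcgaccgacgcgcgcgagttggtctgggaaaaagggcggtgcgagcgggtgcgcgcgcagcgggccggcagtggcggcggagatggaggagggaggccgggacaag

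GAAAGCGAAA begins at -21 in PSMB10, at -28 in PSME2, at -33 in PSMG4 and, on the opposite strand, at position 5 in PSME1, counted from the start. In M1 EV against Ctrl the log2 fold change was 0.45 ± 0.051 (SE) for PSME2, 0.24 ± 0.056 for PSMB10, 0.14 ± 0.05 for PSME1 and -0.14 ± 0.095 for PSMG4, which was not called (adjusted p = 0.286). PSME1 and PSME2 are neighbours, 4402 bp apart on chromosome 14. PSMC4 holds a GAS match and, on the opposite strand, an antioxidant response element, and PSMD2 holds none of the marked motifs.

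Promoters of 42 members were matched, against 15843 protein-coding promoters in all. The interferon-stimulated element was in 6 of the 42 (14.3%) and in 3.17% of all promoters, with other letters at the free positions in PSMA4 and PSMB4. Antioxidant response element letters, which are also a site of NFE2L1 (the factor that drives proteasome genes when proteasome activity is short), were in 12 members (28.6%) and 14.3% of all promoters. CCAAT boxes were in 20 members (47.6%) and 36.4% of all, GC boxes in 28 (66.7%) and 58.5%, and GAS letters in 5 (11.9%) and 6.97%. A kappaB consensus was in 0 members and 6.36% of all promoters. Calls fell on members with and without each motif: 4 of 6 tested members with the interferon-stimulated element were called higher and 24 of 34 without it, 9 of 12 with the antioxidant response element and 19 of 28 without, and 14 of 19 with a CCAAT box and 14 of 21 without. The median log2 fold change was 0.15 with and without each of these 3 motifs. A match of letters is a description and says nothing of binding.

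In the alpha ring 5 of 7 subunits were called higher in M1 EV than in Ctrl, with a median log2 fold change of 0.15. PSMA6 was at 148, 164.3 and 155.5 CPM in Ctrl, 163.2, 158.6 and 151.7 in M0 EV, 185.2, 166.8 and 185.7 in M1 EV, and 160.5, 159.6 and 160.6 in M2 EV. Its M1 EV libraries lay above all others, though M1 EV replicate 2 came close to the highest Ctrl library, and the log2 difference was 0.20 ± 0.042 (SE; adjusted p = 0.000326). PSMA7 was at 388.9, 380.3 and 407.2 CPM in Ctrl, 419.5, 401.1 and 399.4 in M0 EV, 459.9, 431.4 and 425.5 in M1 EV, and 406.2, 404.5 and 401.6 in M2 EV (log2 fold change 0.16 ± 0.034, adjusted p = 0.000298). The M1 EV libraries were again on top, without overlap. PSMA1 (0.16), PSMA3 (0.15) and PSMA5 (0.14) were called as well. PSMA4 (0.09, adjusted p = 0.16) and PSMA2 (0.08, adjusted p = 0.175) were not.

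In the beta ring 6 of 7 subunits were called higher, with a median log2 fold change of 0.17. PSMB7, which carries the trypsin-like site, was at 170, 164.6 and 169.7 CPM in Ctrl, 172, 170.1 and 172 in M0 EV, 204.4, 200.7 and 192.8 in M1 EV, and 173, 175 and 158.4 in M2 EV. The groups did not overlap with M1 EV, where the log2 fold change was 0.25 ± 0.039 (SE, adjusted p = 4.03e-06). PSMB5 carries the chymotrypsin-like site, the main target of bortezomib. It was at 124.6, 126.1 and 125.3 CPM in Ctrl, 122.6, 122.4 and 118.6 in M0 EV, 145, 140.9 and 134.8 in M1 EV, and 125.7, 127.3 and 125.9 in M2 EV (log2 fold change 0.16 ± 0.038, adjusted p = 0.00118). PSMB6, with the caspase-like site, was at 144.2, 146.3 and 144.6 CPM in Ctrl, 149, 139.9 and 144.2 in M0 EV, 152.6, 158.2 and 151.4 in M1 EV, and 149.9, 146.8 and 144.1 in M2 EV. Its M1 EV libraries were the 3 highest of 12, but the log2 fold change of 0.09 ± 0.038 missed the threshold (adjusted p = 0.0799).

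Among the beta subunits without a proteolytic site, PSMB2 changed most. It was at 162.1, 169.9 and 165 CPM in Ctrl, 165.7, 168.8 and 166.4 in M0 EV, 199.3, 187.3 and 191.5 in M1 EV, and 163.9, 172.1 and 165.5 in M2 EV. M1 EV stood above every other library (log2 fold change 0.22 ± 0.037, adjusted p = 1.36e-05). PSMB3 (0.18), PSMB1 (0.17) and PSMB4 (0.15) were also called.

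PSMB10 is the inducible subunit that takes the place of PSMB7 in the immunoproteasome, the form of the core made under interferon gamma. It was at 40.35, 39.52 and 41.86 CPM in Ctrl, 39.66, 38.78 and 39.27 in M0 EV, 49.36, 48.03 and 46.83 in M1 EV, and 45.91, 40.39 and 42.55 in M2 EV. M1 EV was highest without overlap, and 1 M2 EV library came within 1 CPM of it. The log2 fold change against Ctrl was 0.24 ± 0.056 (SE, adjusted p = 0.000866), close to the 0.25 of its constitutive counterpart PSMB7. The other immunoproteasome subunits, PSMB9 and PSMB8, which are no members by the rule, were called higher by 0.33 and 0.28.

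The 6 ATPases of the 19S cap form the motor that unfolds substrates, and 5 of them were called higher, with a median log2 fold change of 0.14. PSMC4 was at 203.7, 200.5 and 213.7 CPM in Ctrl, 215.6, 208.2 and 212.1 in M0 EV, 253, 249.3 and 244.7 in M1 EV, and 222.2, 212 and 216.8 in M2 EV. The M1 EV libraries stood well clear of the other 9 (log2 fold change 0.27 ± 0.035, adjusted p = 8.72e-08). PSMC1 was at 178.5, 187.1 and 192.4 CPM in Ctrl, 193.3, 184.2 and 189 in M0 EV, 219.9, 213.4 and 215.8 in M1 EV, and 192.7, 196.2 and 194.9 in M2 EV (log2 fold change 0.22 ± 0.036, adjusted p = 9.81e-06). M1 EV did not overlap with any group. PSMC5 (0.16), PSMC3 (0.13) and PSMC2 (0.11) were called, and PSMC6 was not (0.09, adjusted p = 0.164).

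PSMD2, a scaffold of the 19S base that holds ubiquitin receptors and shuttles, had the smallest adjusted p of all members. Its level was 797.1, 797.1 and 804.7 CPM in Ctrl, 838.6, 817.9 and 823.7 in M0 EV, 1053, 1024 and 1034 in M1 EV, and 807, 809 and 819.8 in M2 EV. The 3 M1 EV libraries formed a tight cluster, 1037 ± 14.5 CPM against 799.6 ± 4.4 in Ctrl (SD, n = 3). The level was 1.30-fold that of Ctrl (log2 0.38 ± 0.028, adjusted p = 6.44e-14). Its scaffold partner PSMD1 (0.10, adjusted p = 0.0251) and the ubiquitin receptor PSMD4 (0.11, adjusted p = 0.0335) were called with smaller changes.

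The lid carries the deubiquitinase, and 7 of its 8 subunits among the members were called higher (median 0.16 on the log2 scale). SEM1, a lid subunit that the symbol pattern does not take, was not called (-0.14, adjusted p = 0.122 by edgeR). PSMD14, the deubiquitinase itself, was at 150.8, 149.6 and 150 CPM in Ctrl, 154.8, 155.3 and 144.7 in M0 EV, 172, 170.8 and 171.2 in M1 EV, and 147.3, 154.7 and 157.9 in M2 EV. The SD was under 1 CPM in Ctrl and in M1 EV, but 5.97 CPM in M0 EV and 5.43 CPM in M2 EV. M1 EV lay above all other libraries, with a log2 fold change against Ctrl of 0.19 ± 0.038 (SE, adjusted p = 0.000154). PSMD13 was at 181.9, 181 and 183.9 CPM in Ctrl, 192.1, 182.1 and 175.9 in M0 EV, 221, 204.8 and 207.2 in M1 EV, and 184.8, 185.7 and 188.6 in M2 EV (0.21 ± 0.038, adjusted p = 3.49e-05). PSMD3 was at 212, 207 and 210.4 CPM in Ctrl, 216, 207.1 and 215.3 in M0 EV, 241.1, 241.6 and 228.4 in M1 EV, and 217.3, 207 and 210.8 in M2 EV (0.18 ± 0.036, adjusted p = 0.00017). In both genes M1 EV overlapped with no other group. PSMD11 (0.17), PSMD8 (0.16), PSMD12 (0.14) and PSMD7 (0.11) were called, and PSMD6 was not (0.07, adjusted p = 0.372).

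Of the 4 alternative caps 3 were called higher, with a median log2 fold change of 0.15. PSME2, the beta subunit of the interferon-induced activator, had the largest fold change of the members. It was at 74.71, 79.86 and 77.24 CPM in Ctrl, 83.14, 73.3 and 76.69 in M0 EV, 112.1, 100.5 and 104 in M1 EV, and 81.66, 84.53 and 74.91 in M2 EV. The highest library outside M1 EV was at 84.53 CPM, and the mean was 105.5 ± 5.95 against 77.27 ± 2.58 in Ctrl (SD, n = 3), a 1.36-fold level (adjusted p = 4.85e-09).

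PSME1, its alpha partner in the same ring, had a smaller fold change. It was at 92.19, 101.4 and 101.7 CPM in Ctrl, 101.7, 91.25 and 90.29 in M0 EV, 115.2, 104.1 and 107 in M1 EV, and 99.05, 93.9 and 104 in M2 EV. The M1 EV libraries were on top by a small margin, with an adjusted p of 0.0307. The call was lost under 4 of 14 alternatives (summed transcripts, DESeq2, without Ctrl replicate 1, without M1 EV replicate 1), with an adjusted p from 0.0164 to 0.243 over all 14. The 95% intervals of the log2 fold change were 0.34 to 0.55 for PSME2 and 0.04 to 0.24 for PSME1. PSME3, the nuclear cap that works without ubiquitin, was called higher (0.16), and PSME4, the cap of spermatogenesis and the DNA damage response, was not (0.01, interval -0.08 to 0.11).

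PSMF1, an inhibitor of the core, was at 161.8, 165.5 and 154.3 CPM in Ctrl, 162, 161.8 and 160 in M0 EV, 165.9, 166.1 and 166.6 in M1 EV, and 163.5, 161.7 and 159.9 in M2 EV. Its M1 EV libraries were the 3 highest of 12 by a narrow margin, and the log2 fold change of 0.05 was not called (adjusted p = 0.327).

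Assembly chaperones build the particle and leave it. Of those of the 20S core 1 of 4 was called higher (median log2 fold change 0.078), and of those of the 19S base 1 of 3 (median 0.037). Over all genes 14.7% were called higher. Chaperones had an SE of 0.047 (PSMD5) to 0.095 (PSMG4), and ring, base and lid subunits 0.028 (PSMD2) to 0.054 (PSMD6). A change of the same size was thus called less readily in chaperones, and the difference between chaperones and subunits was not tested. PSMG1, which with PSMG2 starts the alpha ring, was at 39.85, 39.62 and 42.12 CPM in Ctrl, 46.24, 40.77 and 41.66 in M0 EV, 49.36, 49.5 and 46.83 in M1 EV, and 44.54, 46.43 and 43.47 in M2 EV. M1 EV was highest, with M0 EV replicate 1 and M2 EV replicate 2 just below (0.26 ± 0.057, adjusted p = 0.000555).

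PSMG2, its partner, had a log2 fold change of 0.07 (adjusted p = 0.4), and PSMG3, which works with PSMG4, of 0.09 (adjusted p = 0.34). Of the base chaperones PSMD9 was called (0.16, adjusted p = 0.0201), while PSMD10 (0.04) and PSMD5 (-0.03) were not. PSMC3IP, a factor of meiotic recombination (0.15, adjusted p = 0.16), and PSME3IP1, a partner of PSME3 (0.05, adjusted p = 0.5), were not called either.

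Of the 32 calls in M1 EV against Ctrl, 21 held under all 14 alternatives tried. The other 11 reached their highest adjusted p between 0.0553 (PSMC3) and 0.243 (PSME1). PSMC2 and PSMD7 each lost their call under 8 of the 14, PSMD1 under 7 and PSMD4 under 6, DESeq2 among them for all of these genes. Without Ctrl replicate 1 the calls of PSMA5, PSMB3, PSMC2, PSMD1, PSMD12, PSMD7, PSMD9 and PSME1 were lost, and without M1 EV replicate 1 those of PSMC2, PSMC3, PSMC5, PSMD1, PSMD4, PSMD7, PSMD9 and PSME1. Other single libraries ended calls of PSMA5, PSMC2, PSMC3, PSMD1, PSMD4, PSMD7, PSMD9 or PSMD12. PSMD2, PSME2, PSMC4, PSMB7, PSMC1, PSMB2 and PSMG1 were among the genes called in this comparison under each of the 14.

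**Figure D3:**
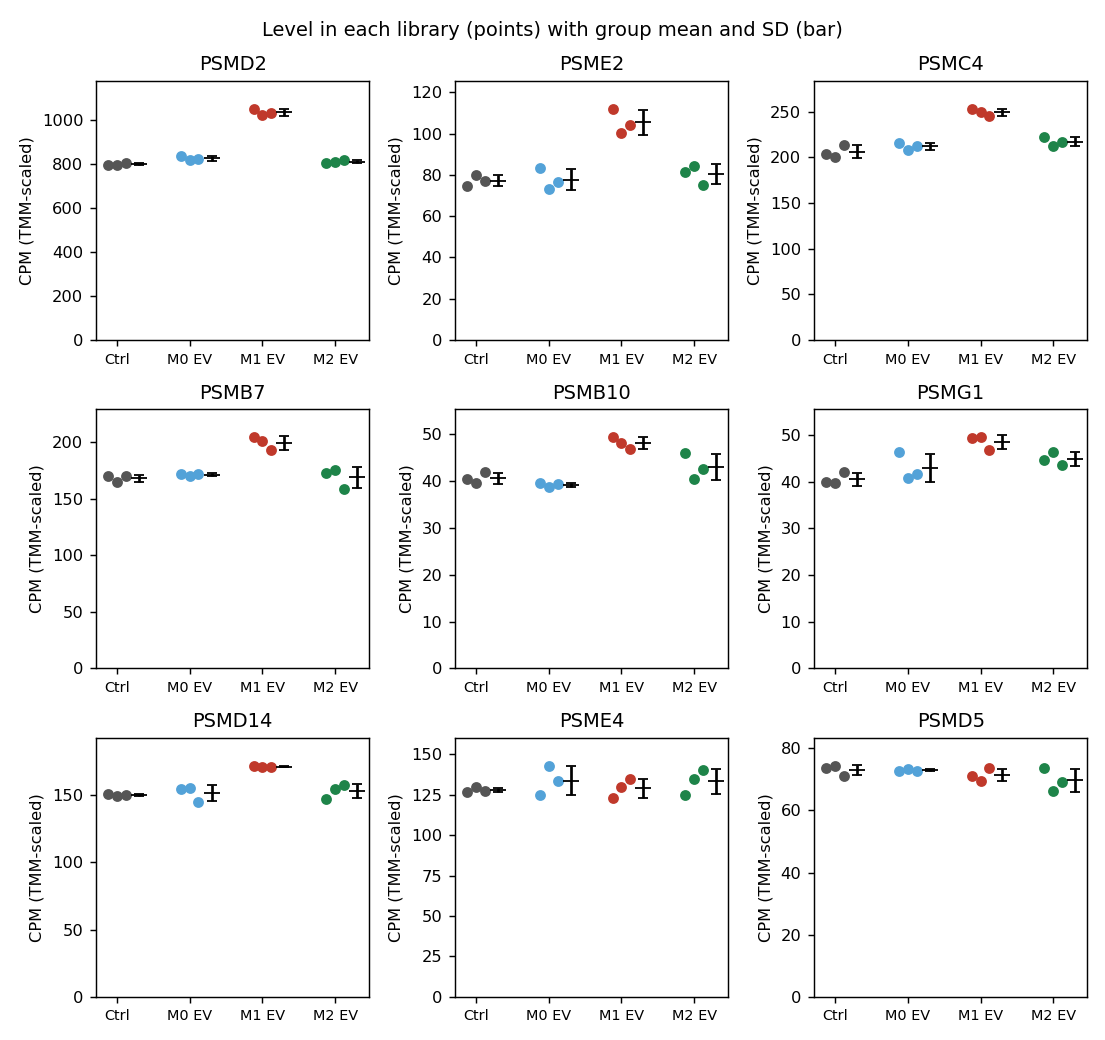
CPM of 9 members in each of the 12 libraries (points) by group, with the group mean and SD beside them and vertical axes from 0. PSMD2, PSME2, PSMC4, PSMB7, PSMB10, PSMG1 and PSMD14 have all 3 M1 EV points above the other 9, while PSME4 and PSMD5 overlap across groups.

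No member was called with M0 EV. By the edgeR quasi-likelihood test 0 of 46 were called in either direction, and DESeq2 called 0 too, against a background of 0.0152% of all genes called. An unadjusted p below 0.05 was found for 2 members and for 656 of all 13132 genes. The members' median log2 fold change was 0.011, and 30 of 46 were positive (65.2%). Over all genes the median was 0.00014, with 50.1% positive. The member with the smallest p was PSMG4, a chaperone of the alpha ring, at 13.48, 15.54 and 14.81 CPM in Ctrl, 13.41, 12.1 and 11.38 in M0 EV, 14.77, 12.53 and 12.47 in M1 EV, and 13.09, 11.73 and 13.02 in M2 EV. All 3 M0 EV and all 3 M2 EV libraries lay below Ctrl (log2 fold change -0.24 and -0.22, unadjusted p = 0.0136 and 0.0212, adjusted p = 0.814 and 0.724 by edgeR). PSMC2 came next, at 132.2, 136.4 and 139.8 CPM in Ctrl, 147.5, 140.4 and 143.6 in M0 EV, 148.5, 145.5 and 146.2 in M1 EV, and 140, 141.7 and 146.1 in M2 EV. Its M0 EV libraries lay above Ctrl, with an unadjusted p of 0.0414 and an adjusted p of 0.976 by edgeR.

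M2 EV also gave 0 calls in 46 by edgeR and 0 by DESeq2, with 6 at an unadjusted p below 0.05. Over all 13132 genes 0.0457% were called and 816 had an unadjusted p below 0.05. The members' median log2 fold change was 0.021, and 38 of 46 were positive (82.6%). Over all genes the median was 0.0013, with 50.7% positive. PSMG1 had the smallest p (0.14 ± 0.056, unadjusted p = 0.0142, adjusted p = 0.665 by edgeR), and its M2 EV libraries, listed above, all exceeded Ctrl. PSMD11, a lid subunit, was at 141.6, 129.5 and 133.6 CPM in Ctrl, 137.9, 134.2 and 131.3 in M0 EV, 153.7, 149.4 and 150.9 in M1 EV, and 124, 129.3 and 125 in M2 EV. It was low in M2 EV and high in M1 EV, but the log2 fold change of -0.10 against Ctrl was not called (unadjusted p = 0.0195, adjusted p = 0.705 by edgeR).

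**Figure D4:**
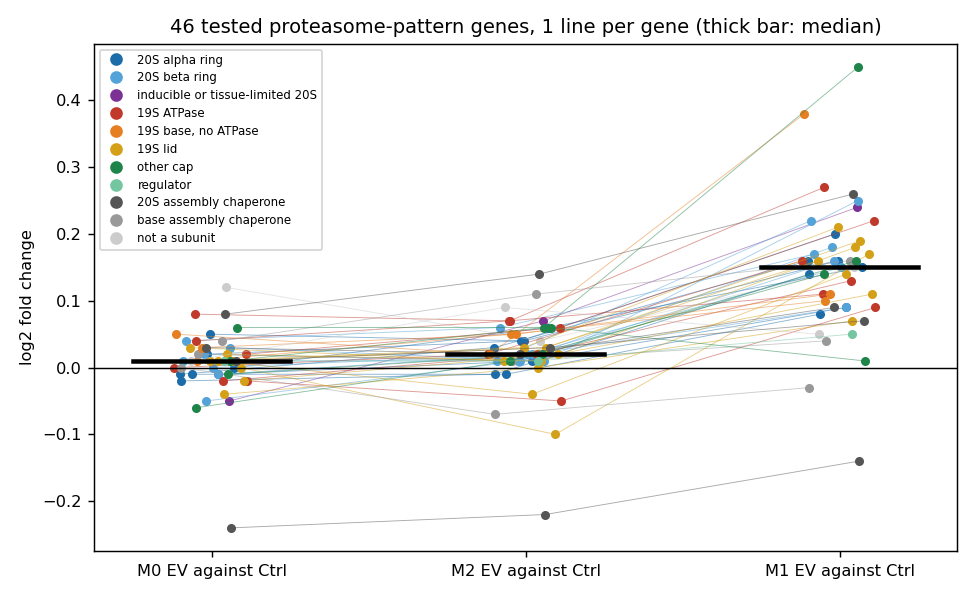
Log2 fold change against Ctrl (vertical axis) of the 46 tested members for M0 EV, M2 EV and M1 EV, 1 line per gene coloured by role, with a thick bar at the median. The comparisons share the Ctrl libraries, and the medians are 0.011, 0.021 and 0.15.

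The vesicle types were also compared directly, in comparisons that share the M1 EV libraries. Against M0 EV, 28 of 46 members were higher in M1 EV and 0 lower, beside 13.2% of all genes higher and 12% lower, with a median log2 fold change of 0.14. Without M0 EV replicate 1, the library that stood apart, 33 were higher. Against M2 EV, 25 were higher and 0 lower, beside 12.9% and 11.7% of all genes, with a median of 0.12. M2 EV against M0 EV gave 0 calls among the members by edgeR, 0 by DESeq2 and 0% among all genes. An unadjusted p below 0.05 by edgeR was found for 2 members and for 438 of all 13132 genes.

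PSMD2 differed from M0 EV by 0.33 ± 0.028 (adjusted p = 3.28e-12) and from M2 EV by 0.35 ± 0.028 (adjusted p = 3.58e-13). For PSME2 the differences were 0.44 ± 0.05 (adjusted p = 7.55e-09) and 0.39 ± 0.049 (adjusted p = 5.53e-08). PSMD11, low in M2 EV, differed from M2 EV by 0.26 (adjusted p = 1.54e-06) and from M0 EV by 0.17 (adjusted p = 0.000988). PSMG1 was called against M0 EV (0.17, adjusted p = 0.0176) and not against M2 EV (0.11, adjusted p = 0.126). The first call was lost under 5 of 14 alternatives (DESeq2, without M0 EV replicate 2 or 3, without M1 EV replicate 1 or 2), with an adjusted p from 0.00312 to 0.116 over all 14. PSMB10 was called against both, by 0.29 (adjusted p = 8.63e-05) and 0.17 (adjusted p = 0.0154), the second lost under 4 of 14 alternatives (summed transcripts, DESeq2, without M1 EV replicate 1, without M2 EV replicate 2), with an adjusted p from 0.00484 to 0.159.

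Other genes of the ubiquitin and proteasome system were read from lists of known components. The lists were chosen with earlier results of these data known, so their counts are a description and no independent test. Of 16 proteasome cofactors 8 were higher in M1 EV than in Ctrl and 1 lower, with a median log2 fold change of 0.12. Over all genes tested, 14.7% were higher and 13.5% lower, with a median of 0.0036. ADRM1, a ubiquitin receptor of the cap, rose by 0.28 (adjusted p = 8.69e-07), and the proteasome-binding proteins ZFAND5 and TXNL1 rose by 0.18 and 0.16. FBXO7, an F-box protein that binds PSMF1, went the other way: 118.8, 119.4 and 122.9 CPM in Ctrl, 118.3, 113.3 and 115.5 in M0 EV, 97.18, 94.97 and 92.78 in M1 EV, and 111.3, 109.2 and 115.8 in M2 EV. M1 EV lay below all other libraries, and the log2 fold change was -0.34 ± 0.041 (adjusted p = 1.55e-08). POMP, the maturation factor of the core, was not called (0.07, adjusted p = 0.324).

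In the pathway of NFE2L1, 6 of 11 genes were higher and 1 lower (all genes: 14.7% and 13.5%), with a median of 0.14. MAFF, a small Maf protein that pairs with NFE2L1 and NFE2L2, was at 24.57, 27.58 and 25.19 CPM in Ctrl, 27.22, 28.07 and 24.18 in M0 EV, 35.22, 38.61 and 33.68 in M1 EV, and 25.59, 27.07 and 25.81 in M2 EV (0.48 ± 0.069, adjusted p = 6.8e-07). M1 EV was above all other libraries. DDI2, the protease that activates NFE2L1, rose by 0.26 (adjusted p = 7.03e-05), SEL1L, of the machinery that pulls proteins out of the endoplasmic reticulum, by 0.17 (adjusted p = 0.000496), and NFE2L1 itself by 0.16 (adjusted p = 0.00084). All M0 EV and M2 EV libraries of DDI2 also lay above Ctrl, uncalled (0.17 and 0.10, adjusted p = 0.461 and 0.773 by edgeR). For DDI2, M1 EV was called against M2 EV (0.16, adjusted p = 0.0126) and not against M0 EV (0.09, adjusted p = 0.16). NGLY1, which removes the glycans from NFE2L1, was lower, at -0.20 (adjusted p = 0.0137).

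Of 15 ubiquitin genes and shuttle factors 8 were higher and 0 lower (all genes: 14.7% and 13.5%), with a median of 0.091. SQSTM1, the autophagy receptor that binds ubiquitin, was at 390.6, 376.5 and 394.3 CPM in Ctrl, 386.3, 374 and 390.4 in M0 EV, 512.9, 518.9 and 503.9 in M1 EV, and 403.9, 392.8 and 393.5 in M2 EV (0.40 ± 0.031, adjusted p = 2.87e-13). All 3 M1 EV libraries lay clear of the other 9. NPLOC4, a cofactor of the unfoldase VCP, rose by 0.21, and the shuttle UBQLN1 by 0.15. UBB, 1 of the polyubiquitin genes, did not pass (0.02, adjusted p = 0.715).

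Of the 10 genes listed for class I antigen presentation 8 were higher and 0 lower (all genes: 14.7% and 13.5%), with a median of 0.28. NLRC5, the transactivator of class I genes, was at 18.08, 18.63 and 18.8 CPM in Ctrl, 19.59, 22.12 and 18.09 in M0 EV, 29.12, 30.83 and 30.53 in M1 EV, and 20.12, 21.45 and 20.02 in M2 EV (0.71 ± 0.073, adjusted p = 5.18e-10). The M1 EV libraries did not overlap with any group. The peptide transporter genes TAP1 and TAP2 rose by 0.57 and 0.37, and TAPBP, which links the transporter to class I molecules, by 0.28. IRF1, an interferon-induced activator of these genes, was not called (-0.05, adjusted p = 0.446). None of the 4 lists had a call in M0 EV or M2 EV against Ctrl: the counts were 0 higher and 0 lower in each.

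Of 24 markers of macrophages and monocytes, the cells that gave the vesicles, CD163, TYROBP, MARCO, C1QA, C1QB and LCP1 had 0 counts in all libraries, and 3 had enough counts to be tested. Their summed level was 57.63 to 66.07 CPM in Ctrl, 61.16 to 63.58 in M0 EV, 72.95 to 75.18 in M1 EV and 62.8 to 66.42 in M2 EV, nearly all of it CD68, a lysosomal protein that rose by 0.24 (adjusted p = 0.000222). Of the 3 tested, 2 were called higher in M1 EV than in Ctrl and 0 lower (all genes: 14.7% and 13.5%). CORO1A, with 61 counts over the Ctrl libraries and 55 over those of M1 EV, was not called. CTSS, a lysosomal protease, was called higher by 1.92 (adjusted p = 7.35e-07) at 26 counts over the Ctrl libraries and 99 over those of M1 EV. The sum of the markers of melanoma and melanocytes moved the other way, mostly through AXL. Their summed level was 1428 to 1460 CPM in Ctrl, 1444 to 1473 in M0 EV, 1145 to 1218 in M1 EV and 1417 to 1439 in M2 EV, with M1 EV below all other libraries. Of the 4 tested, 2 were called lower in M1 EV than in Ctrl and 0 higher, and the same counts held against M0 EV and against M2 EV. Over all genes tested, 13.5% were called lower against Ctrl, 12% against M0 EV and 11.7% against M2 EV. AXL, a receptor tyrosine kinase that made up most of the sum, was at 1323, 1300 and 1308 CPM in Ctrl, 1306, 1332 and 1333 in M0 EV, 1015, 1073 and 1030 in M1 EV, and 1304, 1292 and 1288 in M2 EV (-0.33 ± 0.028 against Ctrl, adjusted p = 1.61e-12). ERBB3, another such receptor, was called lower on few counts, 20 over the Ctrl libraries and 7 over those of M1 EV (adjusted p = 0.0417). CSPG4, the other abundant marker, did not fall: it was at 134.4, 124.7 and 126.5 CPM in Ctrl and 127.6, 141.9 and 134.4 in M1 EV. The part that macrophage RNA or a shift in the melanoma cells had in the change of the proteasome genes was not tested.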

How the data were processed

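Directional poly(A) libraries were sequenced on a NovaSeq X Plus, per the labels' protocols. STAR 2.6.1b, HOMER 4.10 and the hg38 build are named, without their roles, per the submitters' processing notes. Strand use in counting is not given in the sources. The authors deposited expected counts for 70507 RefSeq transcripts, with no normalization. All values were multiples of 0.5, 51.3% of those above 0 not being whole. Transcripts were named with RefSeq GRCh38.p14 (69830) or GENCODE 29 (344). The other 333 held 0.0584% to 0.0623% of each library's counts and were left out. The column used for M0 EV replicate 1 is spelt without the 3 of MV3, and no other column could be that library. For each gene the transcript with the highest sum over the 12 libraries was used, rounded to whole numbers.

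The analysis used edgeR 4.0.16 in R 4.3.3: default low-count filter (13132 genes, 99.9% of counts), TMM factors 0.99 to 1.007, and 1 quasi-likelihood fit with 1 term per group over 12 libraries (biological coefficient of variation 2.59%, 8 residual degrees of freedom). Tests were 2-sided, adjusted by Benjamini-Hochberg within each of 6 comparisons, and called at an adjusted p below 0.05. The fit was tested on simulated data beforehand. Alternatives were RLE and upper-quartile scaling, no filter, summed transcripts, a replicate block, fits of the 2 compared groups only, limma-voom (limma 3.58.1), DESeq2 1.42.0 and leaving out each library. Values in every library were given for the 12 members with the smallest adjusted p in M1 EV against Ctrl, for PSMB5, PSMB6, PSMB7, PSMB10, PSME1, PSME2, PSMG1 and PSMF1, and for the 2 with the smallest p in M0 EV and in M2 EV against Ctrl. Of each other list the 4 genes with the smallest adjusted p were named, except 1 that is not reported here, and other genes were named after their values were seen. Members and lists were chosen with earlier results of these data known.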

Additional observations from a re-analysis of the deposited data

How the results depend on the processing

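In M1 EV against Ctrl, 25 (DESeq2) to 32 members were called higher under the 8 alternatives that keep all libraries, and 24 to 31 with 1 library left out. Of the 32 calls 21 held under all 14 alternatives of that comparison, and PSMA5, PSMB3, PSMC2, PSMC3, PSMC5, PSMD1, PSMD12, PSMD4, PSMD7, PSMD9 and PSME1 lost theirs at least once. Against M0 EV the counts were 24 to 29 and 20 to 33, and against M2 EV 20 to 26 and 17 to 26, the 17 without M1 EV replicate 1. Members called lower, and members called in the comparisons without M1 EV, numbered 0 under each alternative. Replicate numbers do not pair the libraries (correlation of deviations -0.08 to 0.14), and with a replicate block 32, 28 and 26 members were called higher. Over all genes, DESeq2 called 2452, 2142 and 1998 in the 3 comparisons with M1 EV against 3695, 3313 and 3242 by edgeR. M0 EV against Ctrl had 2 genes called, 0 with summed transcripts or DESeq2, 51 without the filter, 20 with the replicate block and 0 to 86 with 1 library left out, the 86 without M0 EV replicate 1. M2 EV against Ctrl had 6, with 0 for summed transcripts, 1 for DESeq2, 33 without the filter, 62 with only its 2 groups in the fit and 0 to 26 with 1 library left out. M2 EV against M0 EV had 0, with 12 without the filter, 1 with the replicate block and 37 without M0 EV replicate 1. The cause was not tested. With 3 libraries a group, the log2 differences of PSMB6 and PSMA4 in M1 EV against Ctrl, 0.09 each, were not called. PSMA4 was called without M1 EV replicate 2 (adjusted p = 0.0482 by edgeR). VCP, at 0.09 with a smaller SE, was called (adjusted p = 0.0207 by edgeR).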
